A study of Mus musculus with 6 samples.

Results

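Cholesterol synthesis and sterol handling genes were examined in the hippocampus of mice with and without Trpc4, which encodes a subunit of calcium-permeable cation channels. The set of 29 listed genes was grouped by function: enzymes of the mevalonate and sterol steps, regulators of the pathway, and genes of sterol transport and turnover. These genes, and the further lists read beside them, were chosen with earlier results of these data known. Counts over them are therefore descriptions. A gene was measured where a probe set (a group of probes read together on the Affymetrix array) named it and no other gene in the platform annotation, and its probe set with the highest mean over the 6 arrays was used. This held for 25 of the 29 listed genes, out of 22180 genes measured in the same way. The only probe set that named Idi1 also named another gene, so it was left out, and Acat2, Nr1h2 and Soat1 were not analysed here. Total RNA came from the hippocampus of male mice at postnatal day 56 on a C57BL/6J background, 3 samples labelled Trpc4 wild type and 3 labelled Trpc4 knockout, with no treatment named in the labels. The labels call the allele a deletion, without the part of the gene removed or how it was made, so it is described here only as a knockout. Values are log2 signals of the robust multi-array average (RMA), on which a difference of 1 is a doubling. Nothing in the labels states that the 3 replicates of a group were different animals, and so the spread behind each p-value may be partly technical.

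Cells build cholesterol from acetyl-CoA through mevalonate to isoprenoid units, which are joined to squalene, closed to lanosterol and then trimmed and reduced to cholesterol. The membrane-bound factors encoded by Srebf1 and Srebf2 are carried to the Golgi by Scap when sterols are low and, once cut, turn on most of these enzymes, while the Insig proteins hold Scap back when sterols are plentiful. The brain makes its own cholesterol, because lipoprotein cholesterol does not cross the blood-brain barrier. Oligodendrocytes use much of it for myelin, and neurons dispose of a surplus by hydroxylation.

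Promoters are shown first because many of these genes are known to respond to the same regulators. Of the 25 measured genes, 20 matched by symbol in a RefSeq table of promoters on mouse build GRCm38.p6, with 28 annotated start sites between them. Fdps, Fdft1, Sqle, Abcg1 and Stard4 had no window there and were not searched. Each window ran from 250 bases before the start to 50 bases after its first base, 300 bases in all. Both strands were searched for a sterol regulatory element (TCACNCCAC), an E-box (CACGTG) and a GC box (GGGCGG), and also for the motif CCAAT, called the CCAAT box, and a base could count towards more than 1 motif. The promoter of Hmgcs1, which makes the HMG-CoA that becomes mevalonate, is printed as the only one with the first motif, and those of Insig2 (first annotated start) and Sc5d because these genes had the largest differences between the genotypes. All are written 5′ to 3′ on the strand of the gene, and capitals mark the sterol regulatory element, the E-box and the CCAAT box, which reads ATTGG when on the opposite strand, with GC boxes left in lower case. They lie at chr13:119690101-119690400 (plus strand) for Hmgcs1, chr1:121332540-121332839 (minus strand) for Insig2 and chr9:42264251-42264550 (minus strand) for Sc5d.
Hmgcs1: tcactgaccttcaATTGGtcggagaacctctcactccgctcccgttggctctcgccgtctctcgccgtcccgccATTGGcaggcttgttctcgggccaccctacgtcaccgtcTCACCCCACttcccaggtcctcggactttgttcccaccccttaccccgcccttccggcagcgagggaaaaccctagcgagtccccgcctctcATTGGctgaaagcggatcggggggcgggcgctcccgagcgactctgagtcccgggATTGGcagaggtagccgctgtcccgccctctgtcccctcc
Insig2: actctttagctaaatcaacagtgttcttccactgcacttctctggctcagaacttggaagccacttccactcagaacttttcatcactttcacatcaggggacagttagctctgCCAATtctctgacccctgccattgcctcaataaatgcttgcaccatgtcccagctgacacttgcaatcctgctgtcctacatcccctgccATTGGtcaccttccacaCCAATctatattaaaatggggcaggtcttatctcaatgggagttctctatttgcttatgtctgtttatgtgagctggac
Sc5d: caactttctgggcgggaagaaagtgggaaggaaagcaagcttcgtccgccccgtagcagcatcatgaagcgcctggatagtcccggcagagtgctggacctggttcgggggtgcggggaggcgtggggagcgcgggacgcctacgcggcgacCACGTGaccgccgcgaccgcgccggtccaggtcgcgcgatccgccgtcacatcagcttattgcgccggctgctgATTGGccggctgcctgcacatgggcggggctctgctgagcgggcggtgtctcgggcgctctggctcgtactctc

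In Hmgcs1 the sterol regulatory element ran from base -137 to base -129 relative to the start site, with 4 CCAAT boxes around it. The Insig2 window held 3 CCAAT boxes, and the windows at the other annotated starts of this gene held none of the capitalised motifs. The Sc5d window held an E-box that began at base -98 and a CCAAT box that began at base -24. Over the 28 member windows, 1 (3.57%) held the sterol regulatory element, against 1.24% of all 32851 mouse promoters of the table. The E-box was found in 7 (25%), against 7.15% of all promoters. CCAAT was found in 19 (67.9%), against 37.4%, and the GC box in 23 (82.1%), against 35.7%. The member windows also held more G and C, with a median of 62.5% against 52.7% over all promoters. The part of that difference in the motif counts was not tested. Windows of the same gene can overlap, as those of Scap do, where the same E-box is counted at both starts. A match describes letters in a window and not a bound site. Only exact letters inside a window were counted, so variant or more distant elements would be missed.

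**Figure D1:**
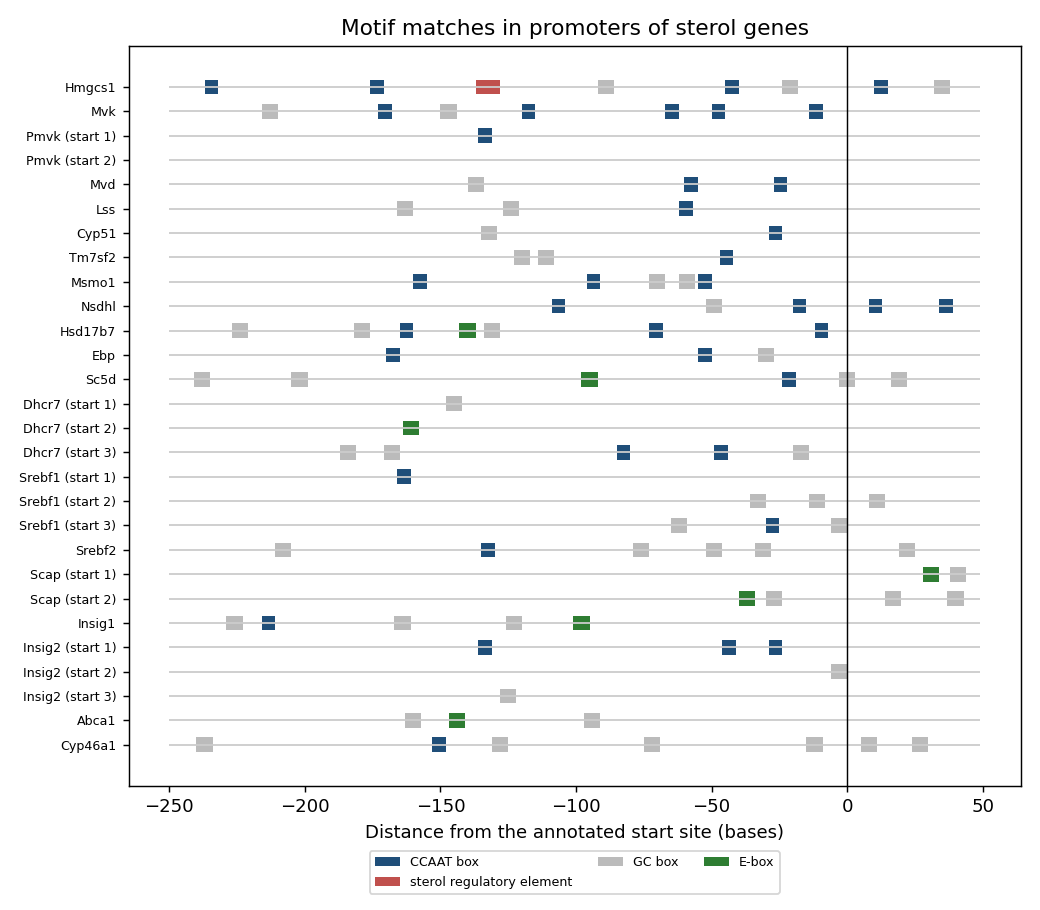
Positions of motif matches in the 28 promoter windows of 20 sterol genes, in bases from the annotated start site (vertical line at 0); each grey line is a window of 300 bases. The sterol regulatory element (red) appears only in Hmgcs1, from -137 to -129, while CCAAT boxes (blue) lie in 19 windows and GC boxes (grey) in 23.

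As a check of the labels, Trpc4 itself (probe set 17397557) read 8.06, 8.23 and 8.06 in the wild-type replicates and 7.39, 7.55 and 7.31 in the knockout replicates. Every knockout sample lay below every wild-type sample, and the mean difference was -0.70 (SE 0.09, 95% interval -0.92 to -0.48), a knockout signal of 61.5% of wild type, with an adjusted p of 0.738 in the limma fit over all genes. Whether its probes lie in the deleted part is not given in the sources used here. The arrays had medians between 4.73 and 4.75 and correlated with each other at 0.985 to 0.988 over probe sets. For the tissue label, neuronal markers were read, and all 11 measured had wild-type means above the median probe set (4.72), from 6.33 for Gad1 to 12.4 for Snap25. The mean over the 6 arrays was above 4.72 for 12978 of all 22180 genes. Over all genes the median wild-type mean was 5.23. Myelin markers were present too, with the 13 measured oligodendrocyte genes at wild-type means from 6.00 for Ppp1r14a to 10.1 for Mobp. Of 7 choroid plexus markers, 5 were at 4.27 or less, while Ttr was at 6.72 and Kl at 6.84. Since signals of different probe sets are not comparable, these values describe the samples and do not rank the cell types.

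No sterol gene passed the test between the genotypes. At an adjusted p under 0.05 (limma, Benjamini-Hochberg over 22180 genes), 0 of the 25 measured members were called, and 0% of all genes were. At an unadjusted p under 0.05, 1 member was lower in the knockout, Insig2, and none was higher, where 2.59% of all genes were lower and 3.16% higher. The lowest adjusted p of any member was 0.853, that of Insig2. Their differences ran from -0.24 for Insig2 to 0.13 for Scap, with standard errors of 0.068 to 0.117, and 14 of the 25 were under 0.1 in size. The 95% intervals held 0 for 24 of the 25 members, and their outer bounds were -0.45, or 73.4% of the wild-type signal, and 0.36, or 128% of it. Larger shifts lay outside the intervals of every measured member. With 3 samples against 3, an exact two-sided permutation test of a single gene cannot give a p below 0.1.

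More members were lower in the knockout than higher, by small amounts. The difference was below 0 for 16 of the 25, or 64%, where 45.1% of all genes lay below 0, and the median difference was -0.062, against 0.013 over all genes. The groups did not overlap for 5 members that were lower in the knockout (Fdft1, Sqle, Ebp, Sc5d and Insig2) and for 2 that were higher (Srebf2 and Scap), where 4.45% of all genes were lower without overlap and 6.41% higher. These genes share a function and may vary together from sample to sample, so the counts are a description of the list. Knockout replicate 2 was the lowest of the 6 samples for 10 of the 25 members, and wild-type replicate 2 the highest for 9. The share of all genes with these extremes was not counted. Over all genes the median deviation from the gene mean was 0.012 in knockout replicate 2 and -0.0039 in wild-type replicate 2. Without knockout replicate 2, 16 of 25 were below 0, not all of them the same genes, since Cyp51 turned to 0.033 and Tm7sf2 to -0.016, and the median was -0.023, and it was -0.039 without wild-type replicate 2.

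**Figure D2:**
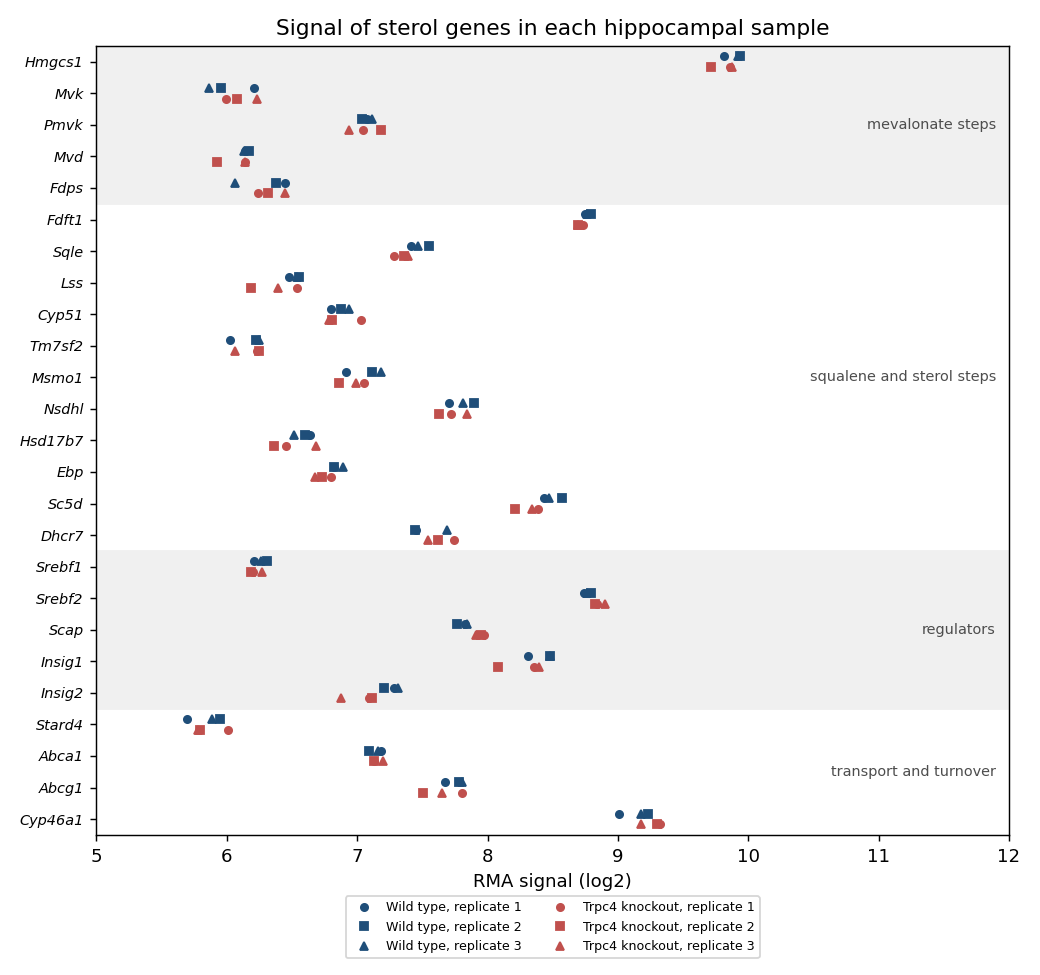
RMA signal (log2) of each measured sterol gene in each of the 6 samples, in pathway order from top to bottom; blue symbols are wild type, red symbols Trpc4 knockout, and the symbol's shape gives the replicate. Most genes show mixed colours; the 3 red symbols of Insig2 (6.88 to 7.11) lie below the 3 blue ones (7.20 to 7.31). Signals of different genes come from different probes and are not comparable in height.

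Levels are given along the pathway because signals of different probe sets cannot be ranked against each other. All 25 members had wild-type means above the median probe set of 4.72, between 5.84 and 9.89. Of all 22180 genes, 12978 had a mean over the 6 arrays above that median. The median wild-type mean over all genes was 5.23. For the mevalonate steps, wild-type means (SD, n = 3) were 9.89 ± 0.070 for Hmgcs1, 6.01 ± 0.18 for Mvk, the kinase that phosphorylates mevalonate, and 7.07 ± 0.039 for Pmvk, which adds the next phosphate. They were 6.15 ± 0.022 for Mvd, the decarboxylase that makes the isoprenoid unit, and 6.29 ± 0.21 for Fdps, which joins such units to farnesyl diphosphate. The wild-type SD thus ran from 0.022 for Mvd to 0.21 for Fdps, while the knockout SDs of these genes were 0.13 and 0.10. Spreads of 3 values were not compared by a test.

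The 5 measured genes of the mevalonate steps were at about the same signal in both genotypes, with differences from -0.078 (Mvd) to 0.094 (Mvk), a median of -0.020 and 3 of 5 below 0. Hmgcs1 read 9.81, 9.94 and 9.92 in the wild-type replicates and 9.86, 9.72 and 9.87 in the knockout replicates, a difference of -0.074 (SE 0.082, unadjusted p = 0.395 and adjusted p = 0.937 with limma). Its groups overlapped, and knockout replicate 2 was the sample below the rest. Mvd read 6.14, 6.17 and 6.13 in wild type and 6.14, 5.92 and 6.14 in the knockout. The knockout value that stood apart was again that of replicate 2, and without it the difference was -0.0050. Mvk read 6.21, 5.95 and 5.86 in wild type and 5.99, 6.08 and 6.23 in the knockout. Its wild-type samples spread more widely than the knockout samples and overlapped them, and the difference moved from 0.094 to 0.021 without wild-type replicate 3 and to 0.19 without wild-type replicate 1. Pmvk differed by -0.020 (SE 0.086) and Fdps by 0.040 (SE 0.117), both with overlapping groups, and both changed sign with 1 sample left out.

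The enzymes that make squalene and turn it into cholesterol were lower in the knockout more often, and each by less than the test could call. Of 11 measured genes, 9 were below 0, or 81.8% against 45.1% of all genes, with a median difference of -0.081. Without 1 sample, 8 to 10 of the 11 were below 0, and the median was -0.050 without knockout replicate 2 and -0.12 without wild-type replicate 1. None passed at an unadjusted p under 0.05 with all samples. The groups did not overlap for 4 of the 11, all lower in the knockout, where 4.45% of all genes were lower without overlap. In RNA of a whole tissue, fewer cells of a type and less RNA per cell cannot be told apart.

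Sc5d, the desaturase that acts late in the pathway before the last reductions, had the largest difference of these enzymes (probe set 17525955). It read 8.43, 8.57 and 8.47 in the wild-type replicates and 8.39, 8.21 and 8.34 in the knockout replicates. The lowest wild-type sample lay just above the highest knockout sample. The difference was -0.18 (SE 0.08, 95% interval -0.38 to 0.01), or 88.1% of the wild-type signal, with an unadjusted p of 0.0604 and an adjusted p of 0.857 in limma. Without 1 sample it ran from -0.22 to -0.13.

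Sqle, the epoxidase that oxidises squalene and a rate-limiting enzyme of the pathway, read 7.41, 7.55 and 7.47 in wild type and 7.28, 7.36 and 7.39 in the knockout, a difference of -0.13 (SE 0.08, unadjusted p = 0.122, adjusted p = 0.880, limma). All knockout samples were below all wild-type samples, by a narrow margin. Ebp, the isomerase that moves the double bond of the sterol ring, read 6.82, 6.82 and 6.89 in wild type and 6.80, 6.73 and 6.68 in the knockout, a difference of -0.11 (SE 0.07). Fdft1, the squalene synthase, read 8.75, 8.79 and 8.76 in wild type and 8.73, 8.69 and 8.69 in the knockout, a difference of -0.062 (SE 0.068). Its groups separated on a small difference because its samples varied little, with an SD of 0.021 in wild type and 0.020 in the knockout. Both Ebp and Fdft1 had an adjusted p of 0.897 or more in limma.

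Lss, the cyclase that forms lanosterol, read 6.48, 6.55 and 6.54 in wild type and 6.53, 6.18 and 6.39 in the knockout. The groups overlapped through knockout replicate 1, and the difference of -0.15 (SE 0.10) rested on knockout replicate 2, without which it was -0.059. Without knockout replicate 1 it was -0.24, with an unadjusted p of 0.0487 in limma. For the sterol demethylation steps, Msmo1, a methyl oxidase, read 6.91, 7.12 and 7.18 in wild type and 7.05, 6.86 and 6.99 in the knockout, a difference of -0.10 (SE 0.10). Nsdhl, the dehydrogenase that works with it, differed by -0.075 (SE 0.090), and Hsd17b7, the ketosteroid reductase of the same complex, by -0.081 (SE 0.10). Their groups overlapped, and without knockout replicate 2 the differences were -0.025 for Nsdhl and -0.012 for Hsd17b7. Wild-type means (SD, n = 3) were 7.07 ± 0.14 for Msmo1, 7.80 ± 0.097 for Nsdhl and 6.58 ± 0.063 for Hsd17b7.

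Cyp51, the lanosterol demethylase, was at 6.87 in both groups, with a difference of -0.00044 (SE 0.093, 95% interval -0.22 to 0.22). Tm7sf2, a sterol reductase, differed by 0.018 (SE 0.094) from a wild-type mean of 6.16 ± 0.12 (SD, n = 3). Dhcr7, the reductase that completes cholesterol, was the other enzyme of these steps above 0. Dhcr7 read 7.45, 7.45 and 7.69 in wild type and 7.75, 7.62 and 7.54 in the knockout, a difference of 0.11 (SE 0.10, unadjusted p = 0.314, adjusted p = 0.924, limma). The highest wild-type sample lay among the knockout samples, and the difference was 0.19 without it and 0.051 without knockout replicate 1.

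**Figure D3:**
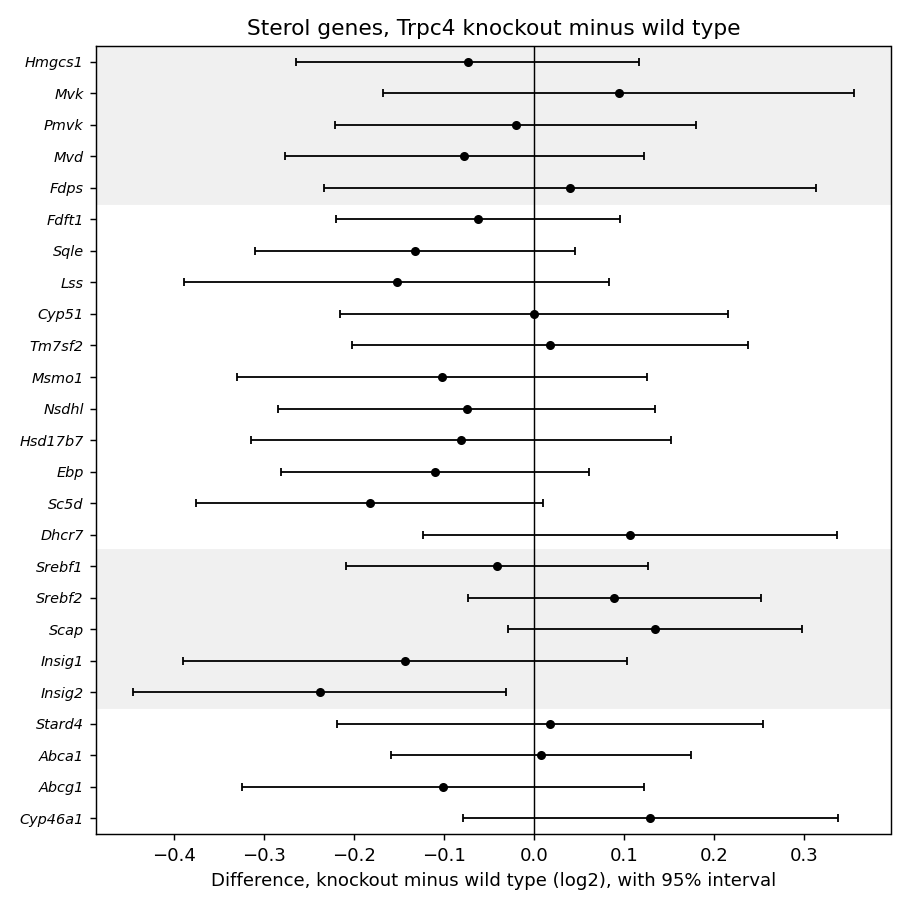
Difference between the genotypes (knockout minus wild type, log2) for each measured sterol gene, with its 95% interval from limma; shading separates the mevalonate steps, the squalene and sterol steps, the regulators, and transport and turnover. The interval of Insig2 (-0.45 to -0.03) is the only 1 of 25 that does not hold 0.

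Among the regulators the members lay on both sides, with 3 of 5 below 0 and a median difference of -0.042. Insig2, which retains Scap in the endoplasmic reticulum, had the largest difference of all 25 members (probe set 17226346). It read 7.28, 7.20 and 7.31 in the wild-type replicates and 7.09, 7.11 and 6.88 in the knockout replicates. Knockout replicate 3 was the lowest, and the other knockout samples also lay below all wild-type samples. The difference was -0.24 (SE 0.09, 95% interval -0.45 to -0.03), or 84.8% of the wild-type signal, with an unadjusted p of 0.0296 and an adjusted p of 0.853 in limma. The exact two-sided permutation p of this gene was 0.1, the smallest the design allows. That value follows from groups that do not overlap and adds nothing to it. The groups did not overlap for 7 members and for 10.9% of all genes. Without knockout replicate 3 the difference was -0.16 (unadjusted p = 0.101, limma). Without wild-type replicate 1 or 3 its unadjusted p also missed 0.05, and over the other single samples left out it reached -0.28.

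Insig1, the sterol-responsive relative of Insig2, read 8.31, 8.48 and 8.48 in wild type and 8.36, 8.08 and 8.39 in the knockout, a difference of -0.14 (SE 0.11, unadjusted p = 0.214, adjusted p = 0.903, limma). The groups overlapped, and without knockout replicate 2 the difference was -0.045. The sample whose omission shrank the difference most was thus knockout replicate 2 for Insig1 and knockout replicate 3 for Insig2.

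Scap, the escort of the sterol-regulated factors, read 7.83, 7.76 and 7.84 in wild type and 7.97, 7.95 and 7.91 in the knockout (probe set 17522338). All knockout samples were above all wild-type samples, with a difference of 0.13 (SE 0.07, 95% interval -0.03 to 0.30), or 109.7% of the wild-type signal, an unadjusted p of 0.0949 and an adjusted p of 0.874 in limma. Scap was the only member with another probe set of its own, a dim one at 4.81 in wild type, which differed by -0.019. With the mean of both probe sets, the Scap difference was 0.057 (unadjusted p = 0.464, limma). Srebf2, the factor that mainly drives the cholesterol enzymes, read 8.74, 8.80 and 8.76 in wild type and 8.84, 8.83 and 8.90 in the knockout, a difference of 0.089 (SE 0.070, unadjusted p = 0.241, adjusted p = 0.907, limma). Its groups did not overlap, and the gap between them was small. Srebf1, whose protein acts more on fatty acid genes, read 6.21, 6.31 and 6.26 in wild type and 6.20, 6.19 and 6.27 in the knockout, a difference of -0.042 (SE 0.072) with overlapping groups.

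The 4 measured genes of transport and turnover had overlapping groups throughout and a median difference of 0.012. Cyp46a1, the neuronal hydroxylase that starts the removal of cholesterol from the brain, read 9.01, 9.23 and 9.18 in wild type and 9.32, 9.30 and 9.18 in the knockout, a difference of 0.13 (SE 0.09, unadjusted p = 0.190, adjusted p = 0.897, limma). The lowest sample was wild-type replicate 1, and without it the difference was 0.062. Abcg1, a pump that loads sterols onto lipoprotein particles, read 7.68, 7.78 and 7.80 in wild type and 7.81, 7.51 and 7.65 in the knockout, a difference of -0.10 (SE 0.10). It was -0.028 without knockout replicate 2 and -0.18 without knockout replicate 1. Abca1, the pump that starts such loading, was at 7.14 ± 0.047 in wild type and 7.15 ± 0.041 in the knockout (SD, n = 3), a difference of 0.0075 (SE 0.072, 95% interval -0.16 to 0.17) that was -0.0021 with quantile normalization. Stard4, a soluble sterol carrier, was at 5.84 ± 0.13 and 5.86 ± 0.13, a difference of 0.017 (SE 0.102).

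**Figure D4:**
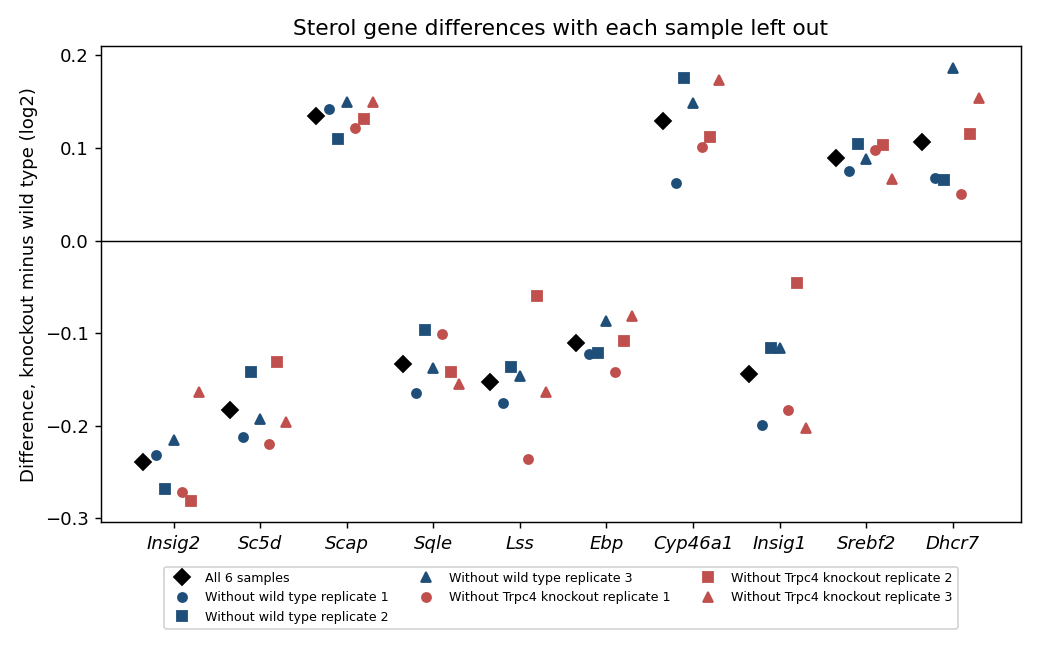
Difference between the genotypes (log2) for the 10 sterol genes with the smallest unadjusted p, with all 6 samples (black diamonds) and with each sample left out in turn (blue: a wild-type sample, red: a knockout sample). None of the 10 changes sign, and Insig1 moves from -0.14 to -0.045 and Lss from -0.15 to -0.059 without knockout replicate 2. The 10 were picked by p in these same data, which favours stable signs. Of the members not shown, 6 change sign with a sample left out.

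Levels of the list in each sample were read from a score, the mean over genes of a sample's deviation from the gene's mean over the 6 samples. For the 11 squalene and sterol genes the score was -0.029, 0.064 and 0.071 in the wild-type replicates and 0.020, -0.094 and -0.031 in the knockout replicates. Wild-type replicate 1 lay among the knockout samples, and knockout replicate 2 was the lowest. For the regulators the scores were -0.011, 0.025 and 0.046 in wild type and 0.0063, -0.053 and -0.014 in the knockout, again with overlap. For transport and turnover they were -0.087, 0.036 and 0.031 in wild type and 0.089, -0.044 and -0.025 in the knockout, where the first replicate of each group was the extreme sample. For the mevalonate steps they were 0.056, 0.017 and -0.062 in wild type and -0.022, -0.036 and 0.046 in the knockout. No list of members separated the genotypes in all samples.

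Myelin genes were read beside the sterol genes in the same samples. Of the 13 measured oligodendrocyte markers, 12 were lower in the knockout, with a median difference of -0.44, 12 at an unadjusted p under 0.05 and 0 at an adjusted p under 0.05 in limma. The groups did not overlap for 11, all lower in the knockout. Over all genes, 2.59% were lower at an unadjusted p under 0.05 and 4.45% were lower without overlap. Their score was 0.24, 0.13 and 0.25 in the wild-type replicates and -0.18, -0.47 and 0.040 in the knockout replicates. Knockout replicate 2 was the lowest sample for all 13 measured markers, as it was for 5 of the 11 squalene and sterol genes, with the share over all genes not counted. Tspan2, a tetraspanin of oligodendrocytes, differed by -0.62 (SE 0.15), Aspa, the enzyme that splits acetylaspartate, by -0.68 (SE 0.18), and Cnp, a myelin phosphodiesterase, by -0.44 (SE 0.14). Without knockout replicate 2 the median was -0.28 for the oligodendrocyte markers, -0.050 for the squalene and sterol genes and -0.023 for all members. The part of the oligodendrocyte signal in the sterol differences was not tested. Medians of the other marker lists were -0.00090 for 12 astrocyte, -0.0038 for 11 hippocampal neuron and 0.0092 for 9 oligodendrocyte precursor genes. They were -0.029 for 8 microglia, -0.071 for 8 endothelium and -0.16 for 7 choroid plexus genes. The genes below 0 numbered 6, 6, 3, 6, 6 and 7 in the same order, where 45.1% of all genes were below 0.

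**Figure D5:**
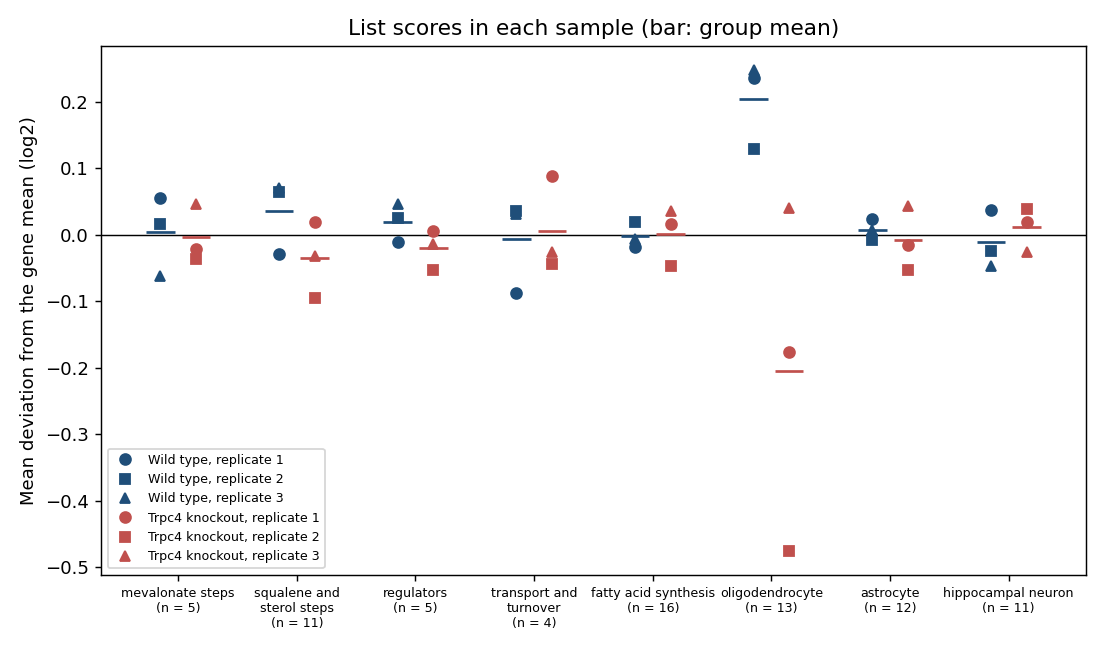
Score of each gene list in each sample (mean deviation from the gene mean, log2), with a bar at each group mean; blue is wild type, red Trpc4 knockout. The 4 sterol lists lie between -0.094 and 0.089 with overlapping groups, whereas the oligodendrocyte list runs from 0.25 in wild-type replicate 3 to -0.47 in knockout replicate 2.

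Neighbouring parts of lipid metabolism were read from lists of further genes. Of 8 further genes of the sterol pathway measured out of 12 listed, 4 were below 0, none passed at an unadjusted p under 0.05, and the median difference was -0.0027. The smallest p-values there were those of Idi2, an isomerase of isoprenoid units (difference 0.33, SE 0.16), Pgrmc1, a heme-binding partner of sterol enzymes (-0.068, SE 0.075), and Tmem97, a sterol-binding membrane protein (-0.10, SE 0.12). Of 25 further genes of sterol transport and turnover measured out of 27, 12 (48%) were below 0, near the 45.1% of all genes. At an unadjusted p under 0.05, 2 were higher and none lower, where 3.16% of all genes were higher, and 0 passed after adjustment in limma. Lrp8, a receptor for reelin and lipoproteins on neurons, read 7.58, 7.53 and 7.49 in wild type and 7.83, 7.82 and 7.83 in the knockout. Its groups were clearly apart, with a difference of 0.29 (SE 0.07, unadjusted p = 0.00359, adjusted p = 0.849, limma). Gramd1c, which belongs to a family of sterol carriers, differed by 0.25 (SE 0.09, unadjusted p = 0.0219 with limma), and Lipa, the lysosomal lipase that frees cholesterol from its esters, by -0.19 (SE 0.08).

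Fatty acid synthesis genes, which respond to the factor encoded by Srebf1, had 6 of 16 measured members (37.5%) below 0, against 45.1% of all genes, and a median difference of 0.031. Acss2, the synthetase that makes acetyl-CoA from acetate, read 7.15, 7.15 and 7.03 in wild type and 7.56, 7.37 and 7.27 in the knockout. All knockout samples were higher, by 0.29 on average (SE 0.10, unadjusted p = 0.0174, adjusted p = 0.849, limma), and it was the only 1 of the 16 at an unadjusted p under 0.05, where 3.16% of all genes were higher and 2.59% lower. The elongase genes Elovl5 and Elovl1 differed by -0.16 (SE 0.08) and -0.30 (SE 0.16). Elovl5 was lower in every knockout sample than in any wild-type sample, while for Elovl1 the groups overlapped.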

How the data were processed

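The log2 values of 6 Affymetrix arrays were used as the authors deposited them. The submitters' processing notes name Affymetrix Power Tools and RMA. Versions, array annotation and build were not given in the sources used here. RMA generally corrects background, quantile-normalizes arrays and summarises each probe set, which hides any shift common to most genes. Trizol was used for extraction, per the labels' protocols. Of 41345 probe sets, 23521 named 1 gene, 1814 several and 16010 none in the platform annotation, which can be old. The probe set of highest mean stood for each of 22180 genes. By gene number, 23328 of the single-gene probe sets were found in the RefSeq table of GRCm38.p6, and 0 symbols differed.

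Genotypes were compared by limma 3.58.1 (lmFit and eBayes, R 4.3.3) on genotype alone, with Benjamini-Hochberg adjustment over all genes at 0.05. The fit was tested on simulated data. Standard errors and 95% intervals come from it. The number of arrays limits precision, and the median standard error was 0.0997. Members and lists were chosen with earlier results of these data known. Every member is named, and of each further list and the oligodendrocyte markers, up to 3 genes of smallest unadjusted p. Samples with the same replicate number were not treated as pairs in the reported fit. Over all probe sets, their deviations from the group means correlated at 0.042, -0.0049 and -0.026. Such values cannot exclude a pairing, since dim probe sets count as much as bright ones. Alternatives changed the normalization, replicate block, array weights, variance model, filter on low signals, probe set rule and samples. Python 3.11.15 was used for the motif search and, with matplotlib 3.10.9, for the figures.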

Additional observations from a re-analysis of the deposited data

How the results depend on the processing

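No alternative gave a member an adjusted p under 0.05, the lowest being 0.705 in limma with only probe sets above the median. The count of members at an unadjusted p under 0.05 in limma, 1 in the reported fit, was 2 with quantile normalization (Insig2 and Sc5d), 2 with only probe sets above the median (the same genes), 3 with a trended, robust variance (these and Scap) and 0 with the replicate block, where Insig2 had an unadjusted p of 0.0536. The share of all genes at an unadjusted p under 0.05 was 5.75% as reported, and 5.87%, 6.94%, 6.22% and 5.93% in the same order. With each sample left out it ran from 0 (without wild-type replicate 1, wild-type replicate 3 or knockout replicate 3) to 2 (without knockout replicate 1, Insig2 and Lss), with 4.9% to 6.5% of all genes. Members whose groups did not overlap, 7 as reported, numbered 6 with the mean of all probe sets of a gene, where the groups of Scap overlapped, at a difference of 0.057. With each sample left out they numbered 7 to 12. The highest share was 48% of members without wild-type replicate 1, against 23.7% of all genes. The lowest was 28%, without wild-type replicate 2 (21.2% of all genes) and without knockout replicate 2 (20.6% of all genes). The median difference of the members ran from -0.070 to -0.023, the latter without knockout replicate 2, and was -0.039 without wild-type replicate 2. The replicate block left the Trpc4 difference at -0.70, and the trended, robust variance took it past the adjusted threshold at -0.70 (adjusted p = 0.0378, limma).

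The replicate block, the variance model and the filter leave every difference unchanged by construction, and the probe set rule can change only Scap. Under the other alternatives, 15 differences of single members, from 6 genes, changed sign, all from small values. Abca1 was -0.0021 with quantile normalization. With each sample left out, Abca1 ran from -0.019 to 0.026, Cyp51 from -0.078 to 0.044, Fdps from -0.078 to 0.12, Pmvk from -0.085 to 0.038, Stard4 from -0.057 to 0.068 and Tm7sf2 from -0.053 to 0.076. The cause of these changes was not tested. Scaling moved the share of all genes below 0 from 45.1% to 48% with quantile normalization and 46.8% with median centring. No raw scans were used, so signal over background could not be given.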
